A study of Xenopus laevis with 6 samples.

Results

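The genes described here encode the machinery that copies DNA: the origin recognition complex and its licensing factors, the MCM helicase and its activators, the replicative DNA polymerases, the sliding clamp and its loader, and the proteins that finish and package the new strands. They were chosen by annotated symbol, which took in every gene named *mcm*, *orc*, *gins*, *rfc* or *rpa* followed by a digit, the subunits of polymerases alpha, delta and epsilon, and a short list of named factors such as *cdc6*, *pcna* and *fen1*. The rule found 60 genes (74 probe sets) among the 11303 genes that the array names singly. The series holds 6 arrays of short oligonucleotide probes, each read in a single colour, with RNA from 8-cell embryos of the frog *Xenopus laevis*. On 3 of them the RNA came from the animal cells at the top of the embryo. On the other 3 it came from the lowest part of the vegetal cells at the bottom, left after their equatorial side had been cut away and discarded. All embryos came from matings of 2 pairs of adult frogs after hormone injection, were freed of jelly and were fixed in acidified ethanol before dissection, and no transgene, mutation or drug is named for either group. The labels do not say how many embryos went into a sample or whether the replicates were different clutches. The p-values therefore cover only the scatter of these samples, which may be technical.

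DNA replication starts at origins, where the origin recognition complex, with CDC6 and CDT1, loads the ring-shaped MCM helicase onto DNA. CDC45 and the GINS complex, helped by the CDC7 kinase, turn the loaded ring into an active helicase, and polymerase alpha-primase, polymerase delta and polymerase epsilon then copy the strands behind it. In the cleaving frog embryo the cell cycle is short and has no gap phases, transcription of the embryo's own genome has not begun, and replication runs on proteins and RNAs that the mother stored in the egg. The comparison asks how the stored RNAs for this machinery were shared between the top and the bottom of the embryo.

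Each value below is the intensity of 1 probe set on 1 array, on the authors' linear scale, which had a trimmed mean of 150.0 on each array. Brightness depends on the probes as well as on the RNA, so levels are compared between samples and never between genes. A difference is the mean log2 intensity in animal samples minus that in vegetal samples, tested with limma across all 19523 probe sets that passed a filter on low values and called at an adjusted p under 0.05. Means are given ± SD with n = 3, and folds with 95% confidence intervals. Since every array has the same trimmed mean, a difference is one of share in the RNA, and fewer cells of a type and less RNA per cell cannot be told apart. The endings .L and .S mark homeologs, the paired copies of a gene that this frog inherited from its 2 ancestral genomes.

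The samples carried the RNAs that define their poles. The markers were listed with earlier results of these data known, so their counts are no independent check of the samples. Of the vegetal markers, which included *nanos1*, *dazl*, *vegt* and *gdf1*, 12 of 12 tested genes were higher in vegetal samples. Of the animal markers *dand5*, *foxi2* and *grhl1*, 4 of 4 tested genes were higher in animal samples. Each gene stood by its brightest probe set. A dimmer probe set of the vegetal marker *plin2.L* went the other way, with means of 302 in animal and 209 in vegetal samples (limma adjusted p = 0.000687). All 5 probe sets for alpha globins and *hbg1* read at most 8.3 on any animal array and at most 8.4 on any vegetal array. Of 9 probe sets for follicle cell markers, 7 were above the highest unspiked control on no array. The summed follicle signal was 83.6 to 98.0 in animal and 62.9 to 76.3 in vegetal samples, most of it from *vim.L* and *vim.S*. The summed blood signal was 453 to 535 in animal and 633 to 690 in vegetal samples, and nearly all of it came from *slc4a1.L*, an anion exchanger. Control probe sets gave a 3' to 5' ratio of *gapdh* between 3.96 and 4.31 on animal arrays and between 6.96 and 7.77 on vegetal arrays. The part of that ratio in the differences below was not tested.

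Replication genes did not lie on one side of the embryo. Of the 60 genes, 58 passed the filter on low values, and of these 20 were higher in animal samples, 11 were lower, and 27 missed the threshold. These shares, 34.5% and 19.0%, stand beside 27.1% and 23.7% of all 8026 genes tested. The values of the animal and vegetal arrays did not overlap for 37 of the 58 genes, or 63.8%, against 58.3% of all genes. A call with a difference of at least 1.5-fold was found for 13 genes, 10 higher and 3 lower in animal samples. That is 22.4% of those tested, against 29.6% of all genes. The median difference was 0.13 (log2) over the 58 genes and 0.03 over all genes, and single genes ran from -1.12 to 3.10.

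**Figure D1:**
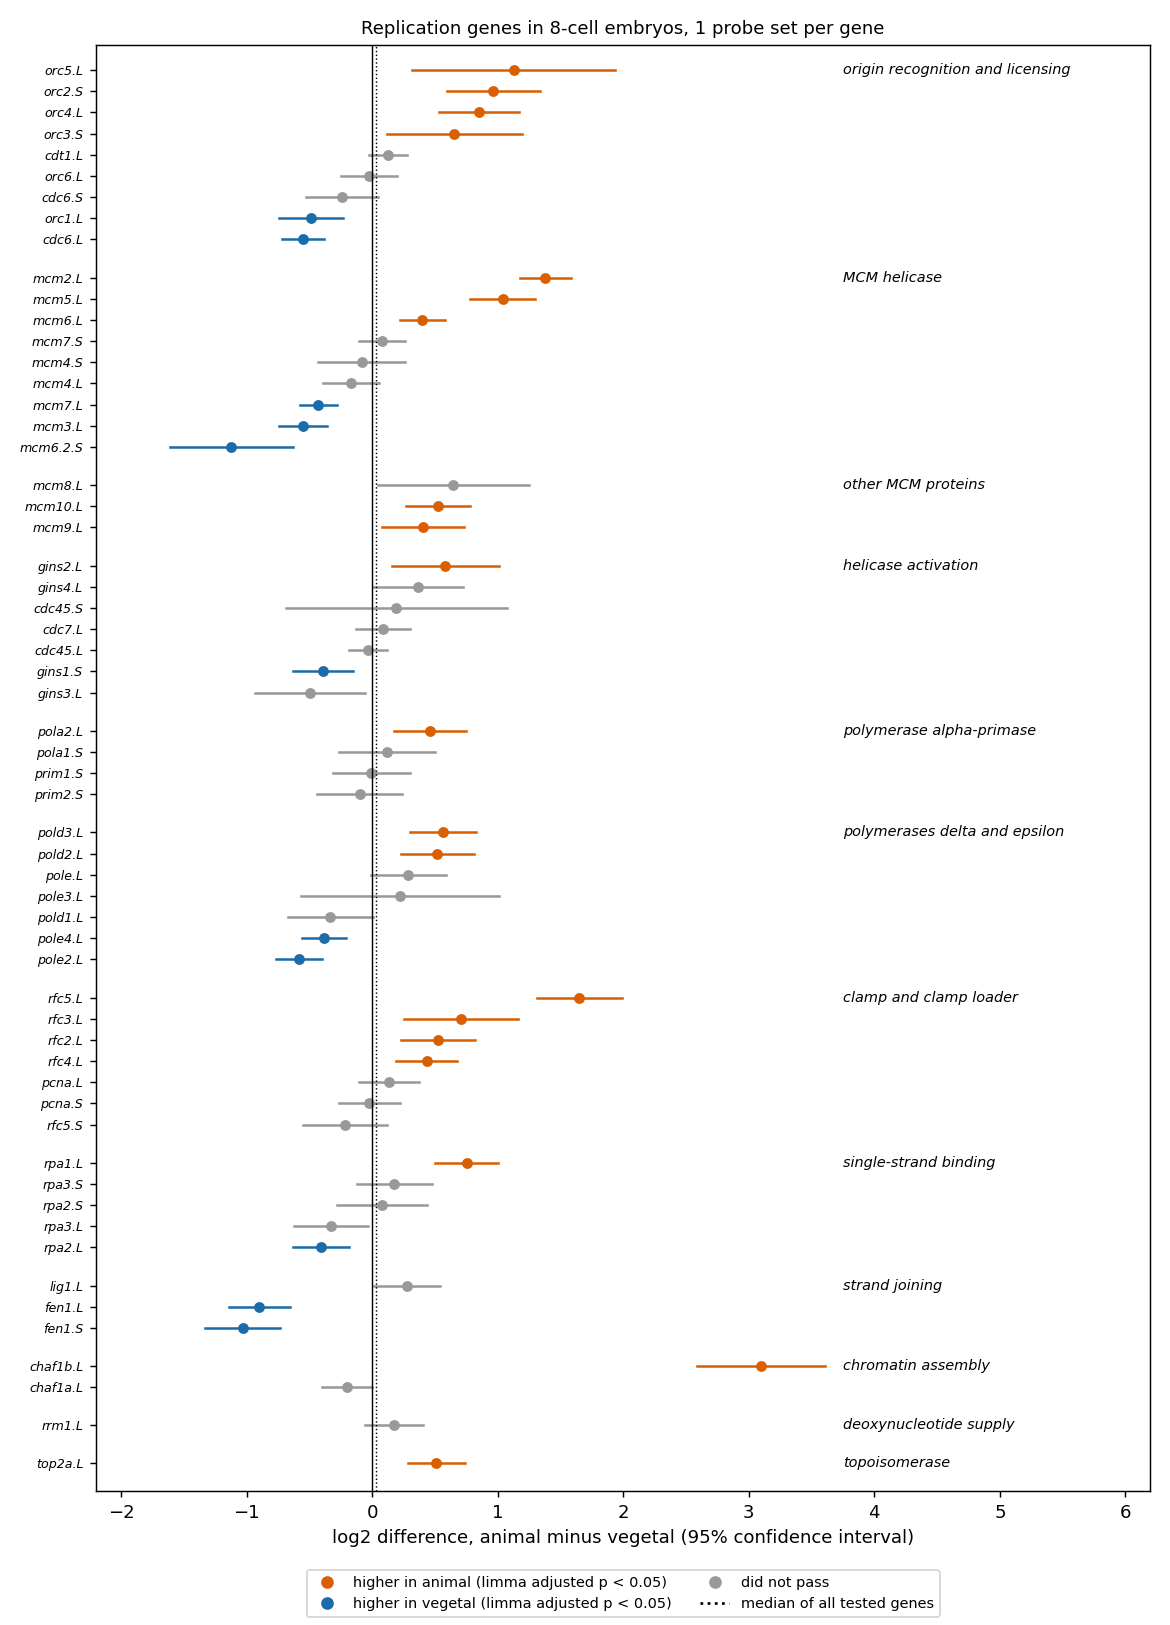
Log2 difference between animal and vegetal samples for the 58 tested replication genes, with 1 probe set for each gene, grouped by role. Points are fitted differences and bars their 95% confidence intervals. Orange genes were higher and blue genes lower in animal samples, and the dotted line marks the median of all tested genes at 0.03. The point farthest to the right is *chaf1b.L* at 3.10, and each role with 4 or more genes except the clamp loader and polymerase alpha-primase holds calls in both directions.

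The split between directions depended on how the arrays were scaled, for replication genes as for the rest. The median over all genes stood at 0.03 with the deposited values. It was -0.02 with quantile normalization, -0.24 when each array was centred on its median, and 0.27 when arrays were scaled to the spiked control RNAs. With it, the replication genes called higher and lower in animal samples numbered 15 and 14 under quantile normalization, 8 and 20 under median centring, and 25 and 5 when scaled to the spiked controls. As shares of those tested these are 25.9% and 24.1%, 13.8% and 34.5%, and 43.1% and 8.62%. The shares of all genes under the same 3 scalings were 25.6% and 27.1%, 14.9% and 40.9%, and 34.7% and 10.3%. Median centring and spiked-control scaling each move all differences by the same amount. That amount was smaller than any called difference, so no called gene could change sign there. Under quantile normalization none of the 31 did. In all 3 scalings 13 stayed called: *orc2.S*, *orc4.L*, *mcm2.L*, *mcm5.L*, *pold3.L*, *rfc5.L*, *rpa1.L* and *chaf1b.L* higher in animal samples, and *cdc6.L*, *mcm6.2.S*, *pole2.L*, *fen1.L* and *fen1.S* lower. The matching share of all genes was not counted, so these 13 only describe the members.

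**Figure D2:**
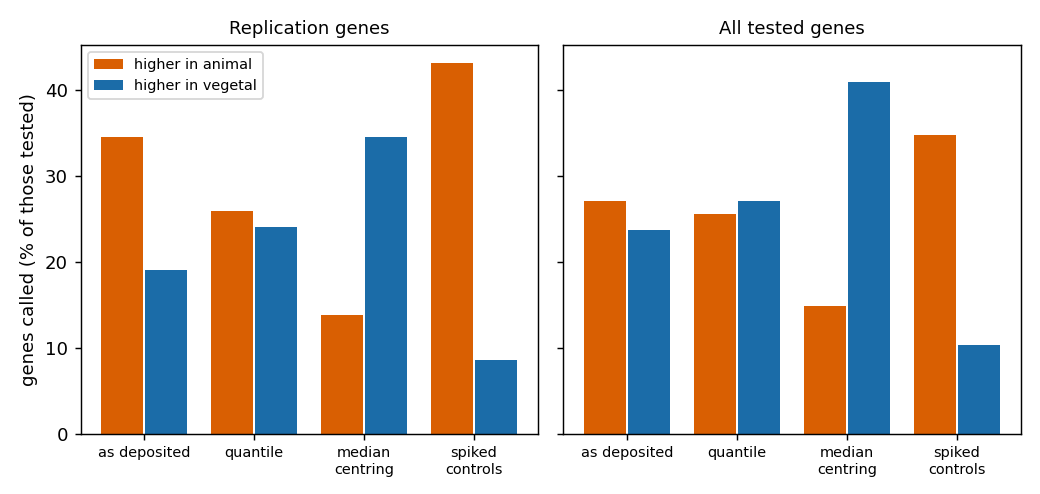
Share of tested genes called higher (orange) or lower (blue) in animal samples, in percent, for the 58 replication genes (left) and all tested genes (right), under the deposited scaling and 3 others. Replication genes called higher in animal samples make up 34.5% as deposited and 13.8% after median centring, and the shares of all genes move the same way, with 27.1% and 14.9%.

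Of 9 tested genes of origin recognition and licensing, 4 were higher and 2 lower in animal samples. These are 44.4% and 22.2%, beside 27.1% and 23.7% of all genes. Within the origin recognition complex, *orc2.S*, *orc3.S*, *orc4.L* and *orc5.L* were called higher and *orc1.L* lower in animal samples. *orc2.S*, a core subunit, read 108.2, 99.5 and 102.6 in animal samples, against 41.6, 61.9 and 57.7 in vegetal samples. Every animal array lay above every vegetal one, and the gene was 1.95-fold higher in animal samples (interval 1.51 to 2.52, limma adjusted p = 0.000277). *orc4.L*, another core subunit, read 210.2, 167.3 and 182.7 in animal and 93.9, 127.4 and 91.2 in vegetal samples, and was 1.81-fold higher in animal samples (interval 1.45 to 2.25, limma adjusted p = 0.000216). These are the calls in the complex that stayed under all 3 other scalings.

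The genes *orc3.S* and *orc5.L* were dim. *orc3.S* read 27.1, 31.4 and 22.9 in animal and 18.8, 16.9 and 15.7 in vegetal samples, and was 1.57-fold higher in animal samples (interval 1.08 to 2.29, limma adjusted p = 0.0408). This call rested on all but 2 of the arrays: the limma adjusted p was 0.0946 and 0.16 when animal replicate 1 or 2 was left out, and 0.0683 and 0.0892 when vegetal replicate 2 or 3 was. It also ended with quantile normalization (limma adjusted p = 0.182) and median centring (0.219). *orc5.L* read 11.5, 20.9 and 12.4 in animal and 7.8, 7.6 and 4.8 in vegetal samples, and was 2.19-fold higher in animal samples (interval 1.25 to 3.83, limma adjusted p = 0.021). Of its vegetal arrays 2 of 3 were above the highest unspiked control, and with the third set to that level the fold was 1.96. Its call ended without animal replicate 2 (limma adjusted p = 0.122), without vegetal replicate 3 (0.066) and with no filter (0.0792). Quantile normalization (limma adjusted p = 0.069) and median centring (0.0682) ended it too.

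*orc1.L*, the largest subunit and one whose ATPase activity drives loading, ran the other way. It read 158.5, 160.3 and 128.8 in animal samples, against 204.0, 214.1 and 206.2 in vegetal samples. It was 1.4-fold lower in animal samples (interval 1.18 to 1.67, limma adjusted p = 0.00302), a call that ended under spiked-control scaling (limma adjusted p = 0.363). *orc6.L*, the subunit most loosely bound to the complex, read 510 ± 48 in animal and 519 ± 62 in vegetal samples (SD, n = 3), a difference of -0.02 (-0.24 to 0.20, log2).

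The licensing factors showed small differences. *cdc6.L*, an ATPase that joins the origin complex to recruit the helicase, read 1545, 1393 and 1317 in animal and 2011, 2015 and 2193 in vegetal samples, with no overlap. It was 1.46-fold lower in animal samples (interval 1.30 to 1.64, limma adjusted p = 3.35e-05), also under each other scaling. Its homeolog *cdc6.S* read 2648 ± 405 in animal and 3152 ± 644 in vegetal samples (SD, n = 3), with overlap, and did not pass (limma adjusted p = 0.147). *cdc6.S* passed, lower in animal samples, without vegetal replicate 2 (limma adjusted p = 0.00698) and after median centring (0.0138). *cdt1.L*, which brings the MCM ring to the origin, differed by 0.13, -0.16 and 0.07 (log2) over its 3 probe sets, and none passed (limma adjusted p = 0.156, 0.117 and 0.509). By its brightest probe set it was called higher in animal samples under quantile normalization and spiked-control scaling.

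The MCM hexamer, in which 6 different subunits form 1 ring, had subunits called in both directions. Of its 9 tested genes, *mcm6.2.S* included, 3 were higher and 3 lower in animal samples. These shares, 33.3% each, stand beside 27.1% and 23.7% of all genes. *mcm2.L* read 550.7, 527.2 and 589.6 in animal samples and 227.0, 219.2 and 195.1 in vegetal samples, and was 2.60-fold higher in animal samples (interval 2.26 to 3.0, limma adjusted p = 1.64e-08). *mcm5.L*, whose product sits beside that of *mcm2* at the gate of the ring, read 298.9, 292.6 and 340.7 in animal and 130.3, 172.7 and 151.8 in vegetal samples, and was 2.06-fold higher in animal samples (interval 1.72 to 2.46, limma adjusted p = 4.55e-06). Neither gene had an animal array below a vegetal one, and both calls stayed under every scaling tried.

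*mcm6.L*, another ring subunit, read 1238, 1191 and 1296 in animal and 1031, 936 and 860 in vegetal samples, and was 1.32-fold higher in animal samples (interval 1.17 to 1.49, limma adjusted p = 0.000874). Its call ended after median centring, where the difference was 0.13 (log2, limma adjusted p = 0.284). For the ring subunit genes *mcm3.L* and *mcm7.L* the order was turned. *mcm3.L* read 354.1, 337.3 and 320.3 in animal and 524.2, 473.4 and 485.9 in vegetal samples, and was 1.47-fold lower in animal samples (interval 1.29 to 1.67, limma adjusted p = 0.000106). *mcm7.L* read 1301, 1341 and 1335 in animal and 1832, 1717 and 1807 in vegetal samples, and was 1.35-fold lower in animal samples (interval 1.22 to 1.49, limma adjusted p = 0.000105). Both of these calls ended under spiked-control scaling (limma adjusted p = 0.159 for *mcm3.L* and 0.186 for *mcm7.L*). The other copy, *mcm7.S*, did not follow, at 557 ± 24 in animal and 527 ± 34 in vegetal samples (SD, n = 3), a difference of 0.08 (log2, limma adjusted p = 0.45).

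*mcm4*, the ring subunit next to *mcm6*, did not pass for either copy, with 275 ± 28 in animal and 308 ± 18 in vegetal samples for *mcm4.L* and 113 ± 14 and 120 ± 25 for *mcm4.S* (SD, n = 3). Apart from *mcm6.2*, described next, the tested subunits of the ring spanned 1.93 log2 units, between *mcm2.L* and *mcm3.L*. A shift of whole arrays adds the same amount to each gene, so this span was the same as deposited, after median centring and after spiked-control scaling.

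*mcm6.2* encodes a second form of the MCM6 subunit, described in *Xenopus* as the zygotic form. *mcm6.2.S* was dim, with 16.9, 21.8 and 26.9 in animal samples and 44.4, 47.1 and 48.9 in vegetal samples. All 6 values were above the unspiked controls, and the gene was 2.18-fold lower in animal samples (interval 1.55 to 3.06, limma adjusted p = 0.000826), opposite in sign to *mcm6.L* and called under each scaling. Its homeolog *mcm6.2.L* did not pass the filter, at 4.7, 6.8 and 7.6 in animal and 7.7, 3.6 and 3.4 in vegetal samples, of which 1 vegetal array was above the controls. The zygotic form of MCM3, *zmcm3.L*, whose symbol lies outside the rule, read at most 5.2 in animal and at most 3.6 in vegetal samples.

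*mcm5.S* was the other gene that did not pass the filter. It read 12.2, 8.9 and 12.3 in animal samples, and its vegetal values of 0.9, 0.7 and 3.9 were all under the highest unspiked control. Set against that control level it was at least 1.95-fold higher in animal samples, with no test.

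**Figure D3:**
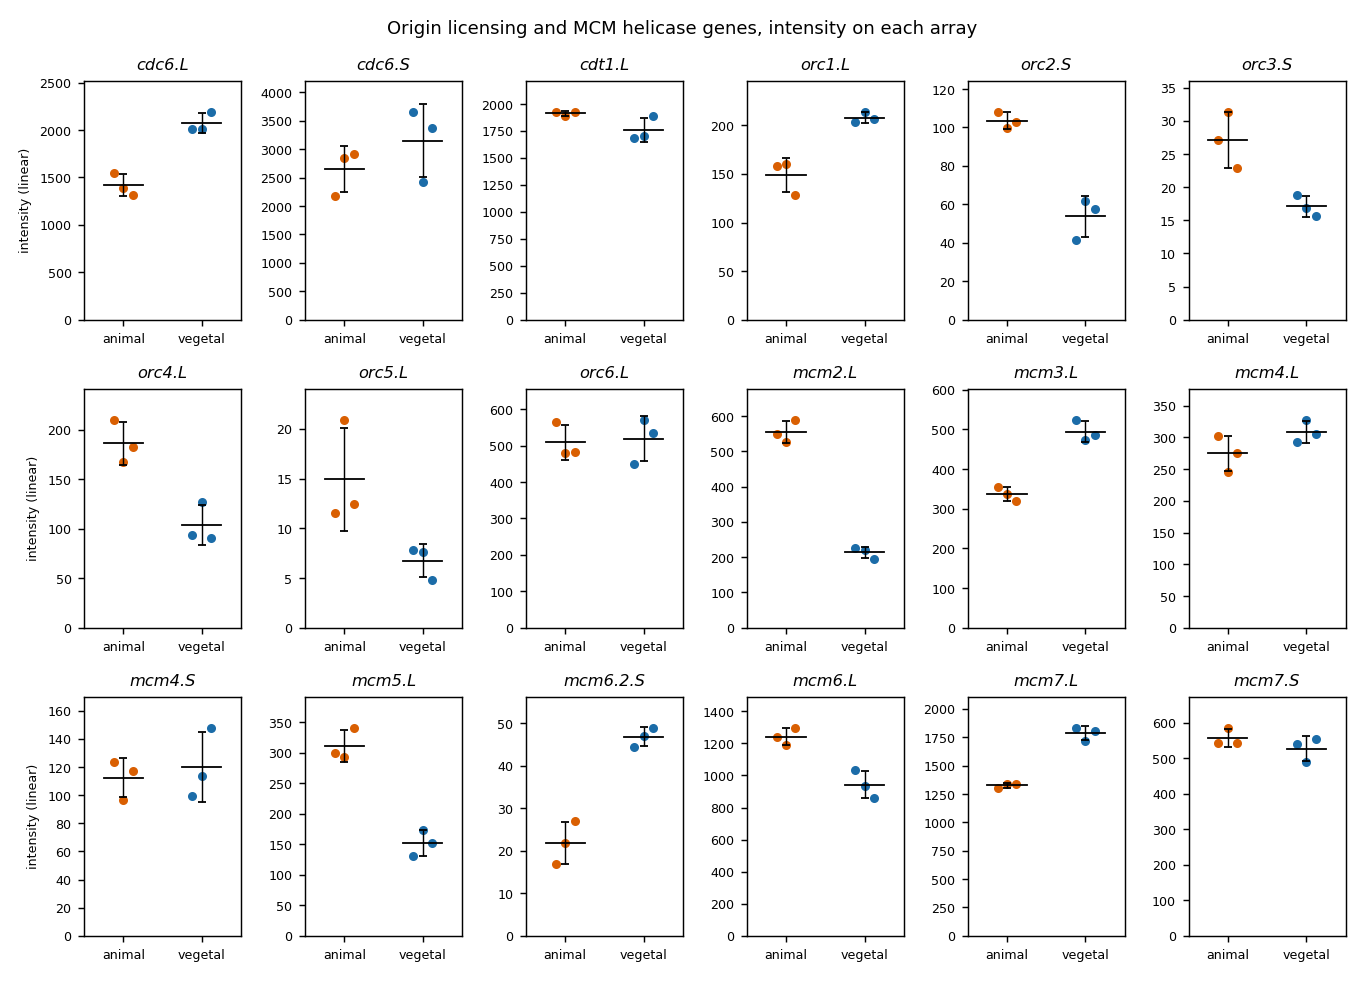
Intensity on each array (linear axis from 0) for the 18 tested genes of origin licensing and the MCM helicase, with animal samples in orange on the left of each panel and vegetal samples in blue on the right. Lines are means and bars SD (n = 3). *mcm2.L* and *mcm5.L* lie higher in all 3 animal samples, *mcm3.L* and *mcm7.L* lower, and the *orc6.L* and *mcm4* values overlap.

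Of the MCM relatives outside the ring, *mcm10.L*, which helps to activate the helicase and to hold polymerase alpha, read 306.3, 274.7 and 232.9 in animal and 172.3, 187.5 and 203.3 in vegetal samples. It was 1.44-fold higher in animal samples (interval 1.21 to 1.72, limma adjusted p = 0.0019), and its call ended after median centring. *mcm9.L*, a helicase of recombination repair, was 1.32-fold higher in animal samples (interval 1.06 to 1.66, limma adjusted p = 0.0369), with overlap between the groups. Its call ended without any 1 array other than vegetal replicate 3 (limma adjusted p = 0.116, 0.0813 and 0.0517 without animal replicates 1, 2 and 3, and 0.126 and 0.116 without vegetal replicates 1 and 2). *mcm8.L*, its partner, read 18.3, 24.8 and 20.0 in animal and 12.1, 16 and 12.2 in vegetal samples, without overlap, and did not pass (1.57-fold, limma adjusted p = 0.0678). It passed without vegetal replicate 2 (limma adjusted p = 0.0487), under spiked-control scaling (0.029) and with no mean-variance trend in the limma fit (0.0207).

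Among the factors that activate the helicase, 5 of the 7 tested genes did not pass. Of the others, 1 was higher and 1 lower in animal samples, or 14.3% each, beside 27.1% and 23.7% of all genes. *cdc45.L* read 1194, 1144 and 1141 in animal and 1198, 1161 and 1195 in vegetal samples, a difference of -0.03 (-0.18 to 0.12, log2). *cdc45.S* read 9.9 to 17.1 in animal and 5.9 to 17.6 in vegetal samples. A probe set that the annotation gives to both copies read 629.0, 624.7 and 585.7 in animal and 492.0, 483.9 and 485.3 in vegetal samples, a difference of 0.33 (log2, limma adjusted p = 0.00286). The *cdc45* probe sets thus disagree. *cdc7.L*, the kinase that fires origins, read 368 ± 39 in animal and 345 ± 20 in vegetal samples (SD, n = 3; limma adjusted p = 0.485).

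Of the 4 GINS subunits, which form 1 complex, *gins1.S* and *gins2.L* were called, in opposite directions. *gins1.S* read 190.1, 217.2 and 228.6 in animal and 294.7, 248.2 and 289.8 in vegetal samples. It was 1.31-fold lower in animal samples (interval 1.11 to 1.55, limma adjusted p = 0.00883), and its call ended under spiked-control scaling (limma adjusted p = 0.581). *gins2.L* read 53.5, 53.9 and 58.9 in animal and 41.0, 42.2 and 29.1 in vegetal samples, and was 1.5-fold higher in animal samples (interval 1.11 to 2.02, limma adjusted p = 0.0234). Its other probe set pointed the opposite way, at -0.49 (log2, limma adjusted p = 0.104), and the mean of both was at 0.05 (limma adjusted p = 0.865). The call of *gins2.L* also ended without animal replicate 2 (limma adjusted p = 0.0555), animal replicate 3 (0.0784) or vegetal replicate 3 (0.0926) and with no filter (0.0586). Quantile normalization (limma adjusted p = 0.103) and median centring (0.206) ended it too. *gins3.L* differed by -0.50 and *gins4.L* by 0.36 (log2), and neither passed (limma adjusted p = 0.0564 and 0.0824). *gins3.L* passed without animal replicate 1 (limma adjusted p = 0.0352), without vegetal replicate 3 (0.0393) and with the lowest 60% by mean left out (0.0422). It also passed under quantile normalization (limma adjusted p = 0.00822) and median centring (0.00484). *gins4.L* passed without vegetal replicate 1 (limma adjusted p = 0.0127) and under spiked-control scaling (0.0255).

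Polymerase alpha-primase, which lays the RNA-DNA primers, had 1 call among its 4 genes, higher in animal samples. That is 25%, near the 27.1% of all genes. *pola2.L*, its regulatory subunit, read 112.4, 125.0 and 123.1 in animal and 87.1, 93.7 and 80.9 in vegetal samples, and was 1.38-fold higher in animal samples (interval 1.13 to 1.68, limma adjusted p = 0.00919). The call ended under quantile normalization (limma adjusted p = 0.0561) and median centring (0.245). The catalytic subunit *pola1.S* differed by 0.12 and 0.40 (log2) over its probe sets, and the primase subunits *prim1.S* and *prim2.S* by -0.01 and -0.10. None of these passed (limma adjusted p = 0.614, 0.184, 0.978 and 0.629).

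Of 7 tested genes of polymerases delta and epsilon, 2 were higher and 2 lower in animal samples. These shares, 28.6% each, are near the 27.1% and 23.7% of all genes. The 2 higher ones were accessory subunits of polymerase delta, and the 2 lower ones were accessory subunits of polymerase epsilon. *pold3.L* read 203.4, 243.4 and 186.9 in animal and 133.8, 145.0 and 147.0 in vegetal samples, and was 1.48-fold higher in animal samples (interval 1.23 to 1.78, limma adjusted p = 0.00132), and *pold2.L* was 1.43-fold higher (1.17 to 1.76, limma adjusted p = 0.00498). *pole2.L* read 964, 1117 and 985 in animal and 1667, 1416 and 1498 in vegetal samples, and was 1.49-fold lower in animal samples (interval 1.32 to 1.69, limma adjusted p = 4.49e-05). *pole4.L*, a histone-fold subunit, was 1.30-fold lower in animal samples by its brightest probe set (interval 1.16 to 1.47, limma adjusted p = 0.0011), and its other probe set was at -0.13 (limma adjusted p = 0.293).

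Of these 4 calls, those of *pold3.L* and *pole2.L* stayed under every scaling, that of *pold2.L* ended after median centring and that of *pole4.L* under spiked-control scaling. The catalytic subunits did not pass. *pold1.L* was at -0.33 (log2, limma adjusted p = 0.0918) and *pole.L* at 0.29 (limma adjusted p = 0.097). *pold1.L* passed without vegetal replicate 3 (limma adjusted p = 0.0393), under quantile normalization (0.0136) and under median centring (0.00398). *pole.L* passed without vegetal replicate 2 (limma adjusted p = 0.0349) and under spiked-control scaling (0.0491). *pole3.L*, the partner of *pole4* in the histone fold, read 8.1 to 11.2 in animal and 6.7 to 10.2 in vegetal samples.

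Of 7 tested genes of the clamp and the clamp loader, 4 were higher in animal samples, or 57.1%, beside 27.1% of all genes. The other 3 did not pass. The 4 were .L genes of the RFC complex, the loader that opens the sliding clamp and sets it on DNA. *rfc5.L* read 151.1, 132.1 and 148.2 in animal samples, against 41.2, 42.5 and 54.5 in vegetal samples. It was 3.14-fold higher in animal samples (interval 2.49 to 3.97, limma adjusted p = 5.58e-07), the largest called fold among the members after *chaf1b.L*. *rfc3.L* read 43.2, 55.4 and 50.1 in animal and 36.9, 29.5 and 25.3 in vegetal samples, and was 1.63-fold higher in animal samples (interval 1.19 to 2.24, limma adjusted p = 0.0119). Without animal replicate 2 the call of *rfc3.L* ended (limma adjusted p = 0.0614), as it did under quantile normalization (0.0592). *rfc2.L* was 1.44-fold (1.17 to 1.76) and *rfc4.L* 1.35-fold (1.14 to 1.60) higher in animal samples (limma adjusted p = 0.00528 and 0.00467).

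Only *rfc5.L* among the 4 stayed called after median centring. *rfc5.S* did not follow, at 182.1, 115.3 and 153.4 in animal and 149.8, 181.4 and 185.6 in vegetal samples (limma adjusted p = 0.266). The clamp itself, PCNA, was close to even. *pcna.L* read 180 ± 15 in animal and 164 ± 4 in vegetal samples and *pcna.S* 193 ± 14 and 196 ± 17 (SD, n = 3), with differences of 0.13 (-0.11 to 0.37) and -0.02 (-0.26 to 0.22) on the log2 scale.

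RPA coats the unwound strand as a trimer, and its subunits also differed in direction. Of its 5 tested genes 1 was higher and 1 lower in animal samples, or 20% each, beside 27.1% and 23.7% of all genes. *rpa1.L*, the large DNA-binding subunit, read 385.4, 403.3 and 406.9 in animal and 277.8, 239.7 and 198.4 in vegetal samples, and was 1.69-fold higher in animal samples (interval 1.42 to 2.00, limma adjusted p = 7.24e-05). *rpa2.L*, the middle subunit, read 592.1, 455.0 and 522.0 in animal and 616.7, 713.0 and 744.6 in vegetal samples, and was 1.33-fold lower in animal samples (interval 1.13 to 1.55, limma adjusted p = 0.00464). That call ended with no filter (limma adjusted p = 0.066) and under spiked-control scaling (0.426). *rpa2.S* did not pass by its brightest probe set (0.08, log2, limma adjusted p = 0.715), whereas 1 of its 2 dimmer ones did, at 0.84 (limma adjusted p = 0.0476), with 2 of 3 vegetal arrays above the controls. A probe set annotated to both *rpa2* copies pointed opposite to *rpa2.L*, at 111.0, 111.7 and 125.2 in animal and 101.1, 103.3 and 86.2 in vegetal samples, a difference of 0.26 (log2) with no overlap that did not pass (limma adjusted p = 0.121). The small subunit did not pass for either copy, with *rpa3.L* at -0.32 and *rpa3.S* at 0.18 (log2, limma adjusted p = 0.0624 and 0.307). *rpa3.L* passed without animal replicate 1 (limma adjusted p = 0.0323) and without vegetal replicate 3 (0.0454). It also passed under quantile normalization (limma adjusted p = 0.0102) and median centring (0.00129).

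*fen1*, the nuclease that trims the flaps of lagging-strand fragments before they are joined, was lower in animal samples for both copies. *fen1.L* read 148.9, 130.8 and 142.5 in animal and 289.4, 262.3 and 236.2 in vegetal samples, and was 1.86-fold lower in animal samples (interval 1.57 to 2.21, limma adjusted p = 1.16e-05). *fen1.S* read 92.0, 72.6 and 95.4 in animal and 159.9, 186.0 and 181.9 in vegetal samples, and was 2.04-fold lower in animal samples (interval 1.66 to 2.51, limma adjusted p = 2.17e-05). The groups did not overlap for either copy, and both calls stayed under every scaling. *lig1.L*, the ligase that seals the trimmed fragments, read 609 ± 128 in animal and 497 ± 43 in vegetal samples (SD, n = 3) and did not pass (limma adjusted p = 0.0742). *lig1.L* passed, higher in animal samples, without animal replicate 3 (limma adjusted p = 0.0319) and under spiked-control scaling (0.00786).

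Chromatin assembly factor 1 places histones on new DNA, and the 2 subunits that the rule took in differed. *chaf1b.L*, the middle subunit, read 72.5, 87.0 and 70.8 in animal samples and 9.7, 10.1 and 7.3 in vegetal samples. It was 8.55-fold higher in animal samples (interval 6.0 to 12.2, limma adjusted p = 5.34e-08), the largest called difference among the members, by its brightest probe set. Its 2 other probe sets were dim, at 7.3 to 11.4 in animal and 5.5 to 14.8 in vegetal samples, and differed by 0.39 and 0.33 (log2), neither past the threshold (limma adjusted p = 0.45 and 0.5). The fold therefore rests on a single probe set. Its vegetal values were near the highest unspiked controls of those arrays, at 4.6, 5.8 and 6.7. The difference of 3.10 (log2) became 1.89 with 16 added to each intensity and 1.27 with the mean of all tested probe sets. It stayed called in both (limma adjusted p = 2.86e-09 and 0.00273). *chaf1a.L*, the large subunit, read 422 ± 34 in animal and 484 ± 29 in vegetal samples (SD, n = 3; limma adjusted p = 0.086). It was called lower in animal samples by its other probe set (-0.27, log2, limma adjusted p = 0.0181), and by this one without animal replicate 2 (0.0304) or 3 (0.0307). The same call was made after median centring (limma adjusted p = 0.00109) and with the mean of its tested probe sets (0.0372).

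*rrm1.L*, the large subunit of ribonucleotide reductase, which makes deoxynucleotides, read 189.6, 187.5 and 201.3 in animal and 163.5, 184.5 and 165.7 in vegetal samples (limma adjusted p = 0.2). Its small subunit appears on the array as *rrm2.1.L* and *rrm2.2.L*, whose symbols lie outside the rule. They differed by -0.22 (limma adjusted p = 0.0202) and -0.05 (0.587) on the log2 scale. *top2a.L*, the topoisomerase that untangles copied DNA, read 433.1, 389.5 and 383.4 in animal and 244.4, 290.2 and 314.5 in vegetal samples. It was 1.43-fold higher in animal samples (interval 1.22 to 1.67, limma adjusted p = 0.00102) and 1.91-fold by its dimmer probe set (limma adjusted p = 0.00977), and the first call ended after median centring (limma adjusted p = 0.0555).

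**Figure D4:**
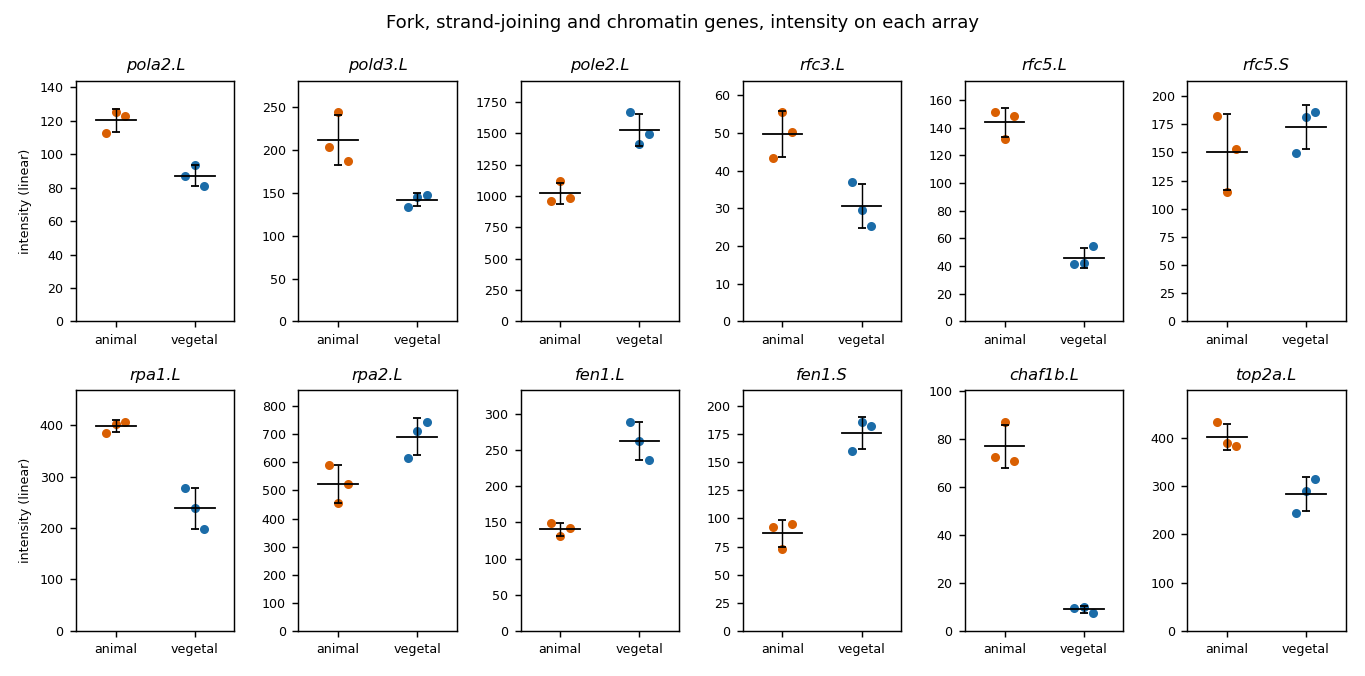
Intensity on each array (linear axis from 0) for 12 genes of the replication fork, strand joining and chromatin assembly, with animal samples in orange on the left of each panel and vegetal samples in blue on the right. Lines are means and bars SD (n = 3). *rfc5.L*, *rpa1.L* and *chaf1b.L* lie higher in all 3 animal samples, *pole2.L* and both copies of *fen1* lower, and *rfc5.S* overlaps.

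The spread between replicates was small for most of these genes. The coefficient of variation over 3 arrays had a median of 8.32% in animal and 9.88% in vegetal samples, and its highest values were 34.7% for *orc5.L* in animal and 47.9% for *cdc45.S* in vegetal samples. Of the 60 genes, 50 were represented by 1 probe set and 10 by several, and in none of the 10 did probe sets pass in opposite directions.

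Both homeologs were tested for 9 replication genes, and for 3 of them the animal-vegetal difference itself differed between the copies. The test was run on the log2 ratio of .L to .S on each array, over all 1357 genes with both copies tested, and a shift of a whole array cancels in it. Over all these genes 48.2% of pairs passed. Whether probes made for 1 copy also bind the other was not tested. For *rfc5* the .L difference exceeded the .S difference by 1.87 log2 units (1.44 to 2.30, limma adjusted p = 5.75e-06). For *mcm7* it was lower by 0.51 log2 units, with -0.43 for .L and 0.08 for .S (limma adjusted p = 0.000496).

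The third pair was *rpa2*, with -0.41 for .L and 0.08 for .S (log2, limma adjusted p = 0.0183), a pair whose shared probe set, given above, differed in sign from *rpa2.L*. It no longer passed without animal replicate 2 (limma adjusted p = 0.0529), without vegetal replicate 2 (0.0687) or after quantile normalization (0.0919). *rpa3* missed the threshold (limma adjusted p = 0.0542) and passed without vegetal replicate 3 (0.0365). The copies of *fen1* both lay on the vegetal side, and their difference of 0.13 log2 units had an interval of -0.26 to 0.53.

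**Figure D5:**
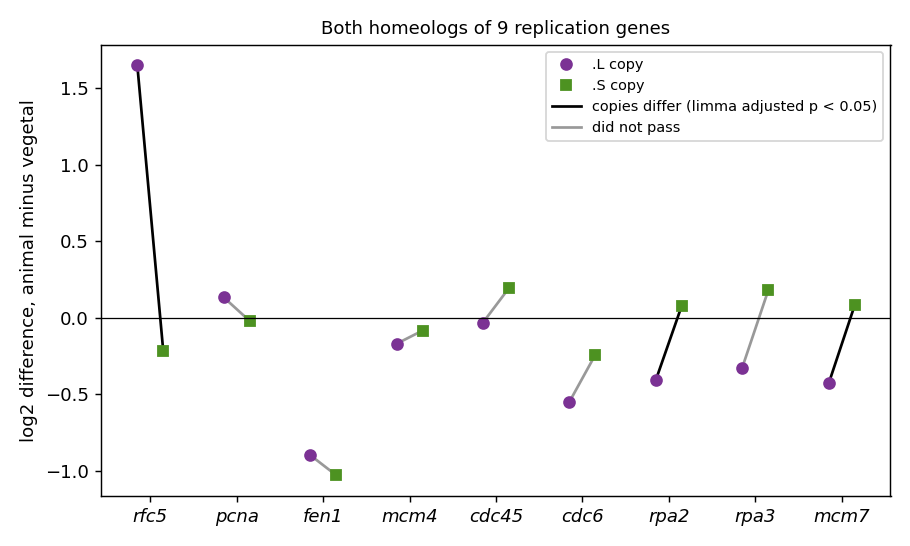
Log2 difference between animal and vegetal samples for the .L copy (circle) and the .S copy (square) of the 9 replication genes with both copies tested. Black lines join copies whose differences differed in the limma test. The *rfc5* copies lie at 1.65 and -0.22, and the *fen1* copies at -0.90 and -1.03.

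Other genes of DNA replication, from a list of regulators, fork proteins, histone chaperones, nucleotide enzymes, checkpoint proteins, bypass polymerases and the mitochondrial replication system, were also divided. Of 68 such genes on the array 63 were tested, of which 18 were higher and 9 lower in animal samples, or 28.6% and 14.3%, beside 27.1% and 23.7% of all genes. Their median difference was 0.13 (log2), beside 0.03 over all genes. The counts became 8 and 25 after median centring, where the shares of all genes were 14.9% and 40.9%, and 24 and 6 under spiked-control scaling, where they were 34.7% and 10.3%. The subgroups that follow are small, and their counts are given as a description beside those shares. Of 10 histone chaperone genes tested, 5 were higher in animal samples (50%, beside 27.1% of all genes) and the other 5 did not pass. *asf1b.L*, which hands histones to the assembly factor, was 1.76-fold higher in animal samples (with limma adjusted p = 7.59e-07), and *supt16h.L*, a subunit of FACT, 1.74-fold (limma adjusted p = 0.0102).

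Origin regulators had 4 genes higher and 5 lower in animal samples among 19 tested, or 21.1% and 26.3%, near the 27.1% and 23.7% of all genes. *cdk2.S*, a kinase that triggers origin firing, read 287.9, 236.1 and 271.5 in animal and 520.3, 695.2 and 779.0 in vegetal samples. It was 2.48-fold lower in animal samples (interval 2.04 to 3.01, limma adjusted p = 8.82e-07). The other copy, *cdk2.L*, read 981 ± 55 in animal and 1136 ± 145 in vegetal samples (SD, n = 3). Its difference of -0.21 (log2) did not pass (limma adjusted p = 0.074). *dbf4.L*, which activates the CDC7 kinase, was 1.56-fold lower in animal samples (limma adjusted p = 4.74e-06). Of the copies of *ccne2*, a cyclin E that binds CDK2, .L was 2.01-fold higher (limma adjusted p = 0.000651) and .S 1.51-fold lower in animal samples (limma adjusted p = 0.000159). *gmnn*, which encodes geminin, the inhibitor of CDT1, was at -0.12 for .L (limma adjusted p = 0.16) and 0.26 for .S (0.00527) on the log2 scale.

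The checkpoint list had 2 genes higher and 1 lower in animal samples among 7 tested, or 28.6% and 14.3%, beside 27.1% and 23.7% of all genes. The higher ones were *atrip.L*, by 1.39-fold, and *rad17.L*, by 1.54-fold (limma adjusted p = 0.00129 and 0.000705). The lower one, *chek1.S*, encodes the CHK1 kinase that slows replication when forks stall, and read 542.2, 483.0 and 428.3 in animal samples, against 1700, 1495 and 1724 in vegetal samples. It was 3.39-fold lower in animal samples (interval 2.95 to 3.91, limma adjusted p = 9.03e-10) and 2.69-fold lower by its other probe set (limma adjusted p = 2.36e-07). The list of fork proteins and other clamp loaders had 3 genes higher and 2 lower in animal samples among 13 tested. These are 23.1% and 15.4%, beside the same 27.1% and 23.7% of all genes. In it, *tipin.L*, which protects stalled forks, was 2.29-fold lower in animal samples (interval 1.89 to 2.78, limma adjusted p = 2.39e-06), while *tipin.S* was 1.35-fold higher (limma adjusted p = 0.00447). Probe sets of *exo1.S*, a nuclease of repair and fork processing, contradicted each other: the brightest was 2.93-fold higher and another 5.58-fold lower in animal samples (limma adjusted p = 1.38e-08 and 2.57e-07). Of 5 tested genes for mitochondrial DNA replication, only *tfam.L*, which packages mitochondrial DNA, passed, 1.35-fold higher in animal samples (with limma adjusted p = 0.0031).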

How the data were processed

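Amplified, biotin-labelled total RNA was hybridized to 6 one-colour arrays, per the labels' protocols. Per the submitters' processing notes, the authors used GCOS, with settings not given in the sources used here, and deposited intensity values on a linear scale. Intensities were used as deposited, since their 2% trimmed mean was 150.0 on each array. Of 32635 probe sets, 96 controls were left out. Names came from the platform annotation, which can be old. All 74 member probe sets matched the reference table of assembly Xenopus_laevis_v10.1 by gene ID and none was renamed. No build is named for the files, so no coordinates are given.

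Values under 1 were set to 1, log2 was taken, and the lowest 40% by mean (intensity under 6.94) were left out. Groups were compared with limma 3.58.1 in R 4.3.3 (eBayes with trend, Benjamini-Hochberg adjustment, no block). The brightest probe set stood for a gene. A value was set against the highest of 59 unspiked controls on its array (4.1 to 6.7). The fit was checked on simulated data in which 200 probe sets were raised in animal samples. Far more were called in these data, in both directions, so that run checked the code and not these calls. Members, lists and rules were chosen with earlier results of these data known, and homeologs were compared after the values were seen. Per-array values were given for members called at 1.5-fold or more, or the largest difference of a role without one, and other genes were named after their values were seen. Arrays give no counts, and their number limits the precision. No protein or promoter sequences were used here.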

Additional observations from a re-analysis of the deposited data

How the results depend on the processing

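Array scaling moved the counts. As deposited, 6188 probe sets and 2177 genes were higher and 4007 and 1905 lower in animal samples, with 20 and 11 replication genes and 18 and 9 genes of the wider list. Median centring gave 3682 probe sets higher and 6661 lower in animal samples, 1193 and 3284 genes, 8 and 20 replication genes, and 8 and 25 genes of the wider replication list. Spiked-control scaling gave 1980 probe sets, 826 genes and 5 replication genes lower in animal samples, and quantile normalization gave 15 genes of the wider list lower. These scalings shift the median of all genes by construction. For the 24 genes named by the rule and 4 homeolog pairs, 401 values under 15 alternatives held 366 with the same direction and side of the threshold, 28 that no longer passed, 6 that passed only there and 1 that turned: *exo1.S*, at -0.46 (log2) with the mean of its tested probe sets, which disagree. With no filter, where more pairs were tested, 5 homeolog pairs of replication genes differed, against 3. Over all homeolog pairs these numbers were 669 and 654. Without single arrays, replication genes higher in animal samples numbered 15 to 20 and lower 11 to 14, and homeolog pairs of these genes 2 to 4. For all genes the same fits gave 1838 to 2102 higher and 1654 to 1794 lower, and 546 to 618 homeolog pairs. Same-numbered replicates did not deviate together (r = -0.023, 0.0063 and -0.014), and 1 of 6 samples correlated best with its own number. With the replicate block 19 replication genes were higher and 11 lower in animal samples, beside 2097 and 1830 of all genes. The call of *orc3.S* ended there (limma adjusted p = 0.0562). Dim genes such as *orc5.L* limit what 3 arrays a group can show.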
